A study of Rattus norvegicus with 28 samples.

Results

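The opioid peptide precursors Penk, Pdyn and Pomc were followed across 3 pain-related regions of the nervous system of adult male rats that had been injected in a hindpaw as pups. The members were all array features that the platform annotation gives to these 3 genes. They were 7 of 228 features: Penk features 194, 196 and 197, Pdyn feature 195, and Pomc features 191, 192 and 198. No coordinates are printed because no genome build was stated for the array, and features of 1 gene are kept apart by number.

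The pups received either carrageenan (0.25% in 0.9% saline, 1 µl/g), an inflammatory polysaccharide, or saline alone in the left hindpaw on postnatal day 3. Weaning was on day 21, and the rats lived to day 59. Tissue came from the PAG, usually short for the periaqueductal grey of the midbrain, the RVM, usually the rostral ventromedial medulla, and the LDH, the lumbar dorsal horn of the cord. The PAG was hybridised on 5 carrageenan and 5 saline arrays and the RVM on 5 carrageenan and 4 saline arrays. The LDH was taken from carrageenan animals only, with 5 arrays of the left and 4 of the right side. Each array carried RNA of an injected animal in one dye and, in another, RNA from the same region of a control that had received no injection, and the dyes were never swapped. Each value is therefore a log2 ratio, likely injected over uninjected, where 1 stands for a 2-fold higher and -1 for a 2-fold lower signal. Whether the arrays within a group hold separate animals is not stated in the labels, and p-values then measure only the spread between these arrays, which may be technical. Whether arrays of different regions or sides came from the same animals is not known here, and the main tests took all arrays as independent.

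Penk, Pdyn and Pomc encode long precursor proteins that neurons cut into opioid peptides. Proenkephalin gives the enkephalins, which act mainly on delta and mu opioid receptors. Prodynorphin gives the dynorphins, which act mainly on the kappa receptor, and proopiomelanocortin gives beta-endorphin together with corticotropin and the melanocyte-stimulating hormones. The periaqueductal grey and the rostral ventromedial medulla form a descending path that raises or lowers pain signalling in the dorsal horn, and opioids act at each of its stations. Enkephalin and dynorphin are also made by local neurons of the dorsal horn, whereas most beta-endorphin in the brain comes from neurons of the hypothalamus that send fibres to the periaqueductal grey.

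The depth of the arrays limited what could be read. Of 6384 values in all, 3566 (55.9%) were an exact 0, treated as not measured, and an array measured between 7 and 195 features. Of the 196 values of the opioid precursors, 119 were measured. Penk 194 was measured on 23 of 28 arrays, Penk 196 and Pomc 191 on 21 each, Pdyn 195 on 18, Pomc 198 on 16, Pomc 192 on 12 and Penk 197 on 8. A feature was tested with limma where at least 3 arrays measured it in every group fitted, with p-values adjusted by Benjamini-Hochberg over all features tested in the comparison.

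**Figure D1:**
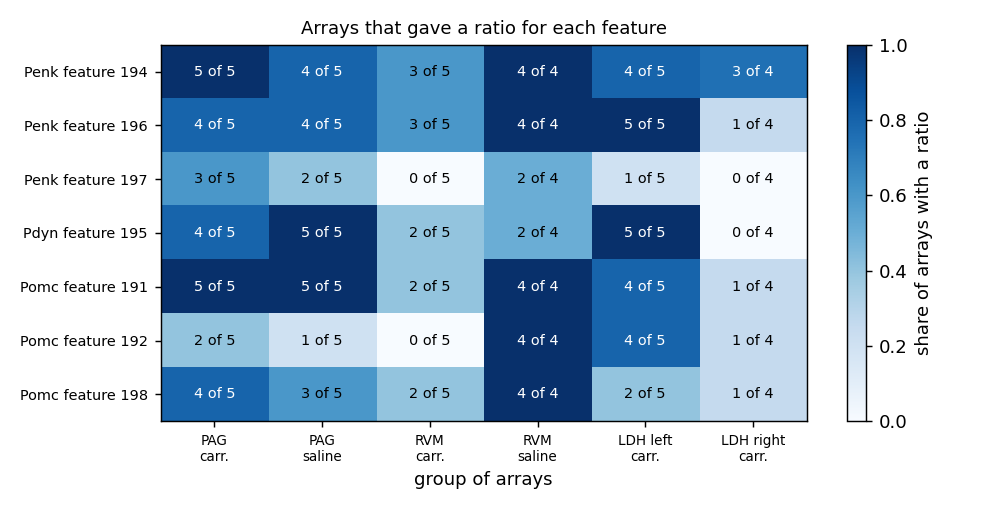
Number of arrays that gave a ratio for each opioid precursor feature (rows) in each group of arrays (columns), with the share of arrays as colour. Penk 194 was measured on all 5 PAG carrageenan arrays and all 4 RVM saline arrays, whereas Pdyn 195 was measured on 5 of 5 left LDH arrays and 0 of 4 right LDH arrays.

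Pdyn, the dynorphin precursor, was higher in the PAG of injected rats than in uninjected controls, if the ratios run in the likely direction, and lower by the same amount if they run the other way. In PAG carrageenan the log2 ratios of Pdyn 195 were 1.19, 0.88, 0.22 and 1.60, and the fifth array did not measure it. In PAG saline they were 0.63, 0.36, 0.55, 0.73 and 0.17. All 9 measured PAG arrays were above 0, with a median of 0.63, and the ranges of the carrageenan and saline groups overlapped. The same held for 6 of the 78 features tested in the PAG (7.69%).

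A value over both injections, or over both sides of the LDH, is the mean of the 2 group means, each group weighted equally. For Pdyn in the PAG it was 0.73 (95% interval 0.42 to 1.04, n = 9; limma, adjusted p = 0.0149), and the plain mean of the 9 arrays was 0.70. It was 1 of 5 opioid precursor features tested to pass, where 7 of 78 features passed in all (8.97%). The carrageenan group alone had a mean of 0.97 ± 0.58 (SD, n = 4; 95% interval 0.51 to 1.44; limma, adjusted p = 0.0224). Of the 78 features, 11 passed in that comparison (14.1%), and Pdyn was the only 1 of 5 opioid precursor features among them. The 11 became 1 to 9 when 1 array was left out and 0 to 12 under the other alternatives. The saline group had a mean of 0.49 ± 0.22 (SD, n = 5; 95% interval 0.07 to 0.90; limma, adjusted p = 0.383), which did not pass. In that comparison 0 of 78 features passed in limma (0%) and 0 in the exact permutation test, which could not pass because 5 arrays give no p below 0.0625. An unadjusted limma p under 0.05 was found for 9.

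Dye and injection cannot be told apart in these tests against 0, and in bulk tissue a change in the number of cells cannot be told from a change in RNA per cell. An exact permutation of signs over the 9 arrays gave p = 0.00391 for Pdyn over both injections, the smallest that 9 arrays can give, and an adjusted p of 0.0508, which does not pass. That call was also lost in limma with all 6 groups in 1 fit (adjusted p = 0.349), zeros kept (0.0817) and a block on array number (0.0526). The carrageenan call was lost in the exact permutation test (adjusted p = 0.271), where 4 arrays give no p below 0.125. In limma it was lost with all 6 groups in 1 fit (adjusted p = 0.373), the group alone (0.149), quantile normalization (0.149), a block on array number (0.076) and zeros kept (0.0735). It was also lost without PAG carrageenan array 1 (limma, adjusted p = 0.0577), array 2 (0.0628) or array 4 (0.0604), whereas the call over both injections remained without any single array (0.00498 to 0.0451).

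Carrageenan and saline did not differ beyond their spread for Pdyn in the PAG. The carrageenan mean exceeded the saline mean by 0.49 (95% interval -0.13 to 1.11; limma, adjusted p = 0.432), and the direction turned under quantile normalization, which gave -0.30. The interval includes 0 as well as a difference of more than 1 log2 unit. The array holds few markers of the cell types of these regions: 4 of 37 listed markers, as 5 features, and none for glia, glutamate neurons, motor neurons or pituitary. Of these, Slc6a4, the serotonin transporter, was measured on 7 PAG arrays and was above 0 on all 7, with 0.88 ± 0.39 (SD, n = 4) under carrageenan and 0.48 ± 0.19 (SD, n = 3) under saline. Gad2, an enzyme of GABA synthesis, was above 0 on 8 of 9 PAG arrays, with a mean of 0.21 ± 0.19 (SD). Slc6a2, the noradrenaline transporter, had 2 features that differed in sign under PAG carrageenan, at -1.38 ± 1.04 (SD, n = 5) for feature 203 and 0.29 ± 1.20 (SD, n = 4) for feature 204. Gad1, a further enzyme of GABA synthesis, was measured on 1 PAG array, at 0.90. The part of these cell types in the Pdyn result was not tested, and ratios against a control of the same region cannot check the labelled tissue.

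Outside the PAG, Pdyn was measured unevenly. On the left LDH arrays it read -0.43, 3.04, 1.00, 0.44 and 0.61, with a mean of 0.93 ± 1.29 (SD, n = 5). Thus 4 of 5 arrays were above 0, and array 2 was far above the rest. No right LDH array measured Pdyn, so the sides could not be compared. Only 2 of 228 features (0.877%) were measured on all left and no right arrays, and Pdyn was 1 of them. The right arrays measured 54.25 features on average and the left arrays 104.4, and the part of this gap was not tested. In a fit of the left group alone, in which 92 features were tested, the Pdyn mean had a 95% interval from -0.41 to 2.28 (limma, adjusted p = 0.521).

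In the RVM, Pdyn was read on 4 of 9 arrays. RVM carrageenan gave -0.27 and 0.16, and RVM saline gave 5.99 and -0.32. The value of 5.99, on saline array 2, was the highest of any opioid precursor value, and the other 3 lay near 0. Ordered by mean, Pdyn stood at 2.84 in RVM saline, 0.97 in PAG carrageenan, 0.93 in left LDH, 0.49 in PAG saline and -0.058 in RVM carrageenan. Neighbours in this order overlapped in range, except for PAG saline and RVM carrageenan, which rested on 5 and 2 arrays.

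**Figure D2:**
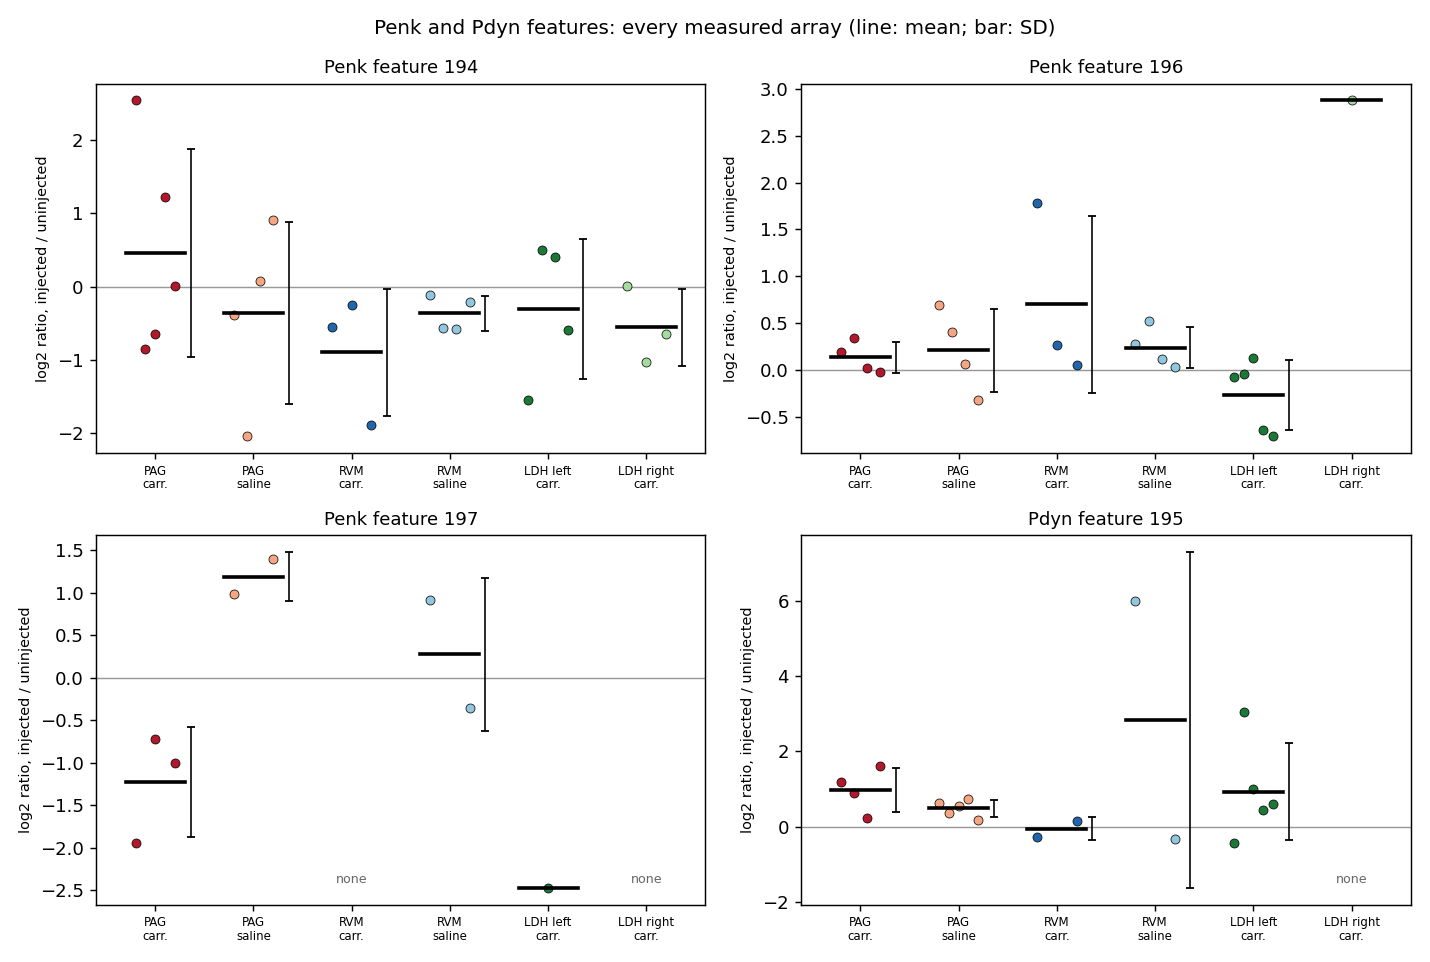
Log2 ratio of injected over uninjected RNA (vertical axis) on every array that measured the 3 Penk features and the Pdyn feature, by group; the line is the mean and the bar the SD. Pdyn lies above 0 on all 9 measured PAG arrays, and Penk 194 below 0 and Penk 196 above 0 on all 7 RVM arrays that measured each.

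Penk, the enkephalin precursor, gave readings that depended on the feature. In the RVM, Penk 194 was below 0 on every measured array and Penk 196 above 0 on every measured array. Neither passed the test, and neither differed between carrageenan and saline beyond the spread.

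Penk 194 read -0.55, -0.25 and -1.89 on 3 RVM carrageenan arrays and -0.11, -0.56, -0.58 and -0.21 on the 4 RVM saline arrays. All 7 were below 0, as was true of 3 of the 56 features tested in the RVM (5.36%). Over both injections its mean was -0.63 (95% interval -1.13 to -0.13, n = 7; limma, unadjusted p = 0.0217, adjusted p = 0.157). The exact permutation of signs gave p = 0.0156, the smallest that 7 arrays can give, and an adjusted p of 0.109. In this comparison 4 of 56 features passed (7.14%), and 0 of 2 opioid precursor features.

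Penk 196 read 1.78, 0.27 and 0.055 on 3 RVM carrageenan arrays and 0.29, 0.53, 0.12 and 0.036 on the 4 RVM saline arrays. All 7 were above 0, again a pattern of 3 of 56 features (5.36%), and most lay close to 0. The mean over both injections was 0.47 (95% interval -0.06 to 1.01, n = 7; limma, adjusted p = 0.262), and the exact permutation gave the same p of 0.0156 and adjusted p of 0.109.

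By treatment, Penk 194 had a mean of -0.90 ± 0.87 (SD, n = 3) in RVM carrageenan (limma, adjusted p = 0.511) and of -0.36 ± 0.24 (SD, n = 4) in RVM saline (limma, adjusted p = 0.444). Penk 196 had 0.70 ± 0.94 (SD, n = 3) and 0.24 ± 0.22 (SD, n = 4), with adjusted p of 0.723 and 0.637 in limma. Of 56 features, 1 passed for RVM carrageenan (1.79%) and 3 for RVM saline (5.36%), none of them an opioid precursor. Between the treatments, Penk 194 differed by -0.53 (95% interval -1.54 to 0.47) and Penk 196 by 0.46 (95% interval -0.61 to 1.53), each with a limma adjusted p of 0.85. In that comparison 0 of 56 features passed in limma (0%) and 0 in the exact permutation test, while 4 had an unadjusted limma p under 0.05. With so few arrays that permutation has few possible p-values, so it could pass a feature only together with several others.

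On the arrays that measured both, Penk 194 and Penk 196 were of opposite sign on 6 of 6 in the RVM, with feature 194 the lower each time. The difference was -0.88 ± 0.77 (SD, n = 6). An exact paired permutation test, chosen after the values were seen, gave p = 0.0312, the smallest that 6 arrays can give. After Benjamini-Hochberg adjustment over 7 such pairs it was 0.219. This p follows from the signs already given for each feature in the RVM and adds nothing to them. In the PAG they were of opposite sign on 6 of 8 arrays, but neither was regularly the lower, and the difference was -0.072 ± 1.59 (SD). Over all 19 arrays that measured both, r was -0.20 (permutation p = 0.374, adjusted 0.825), rho was -0.25 (permutation p = 0.295, adjusted 0.766) and the signs were equal on 5. Without the 2 arrays farthest from the median of Penk 194, r was -0.26. Features annotated to the same gene thus did not read alike, and which of them reads Penk RNA was not tested.

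**Figure D3:**
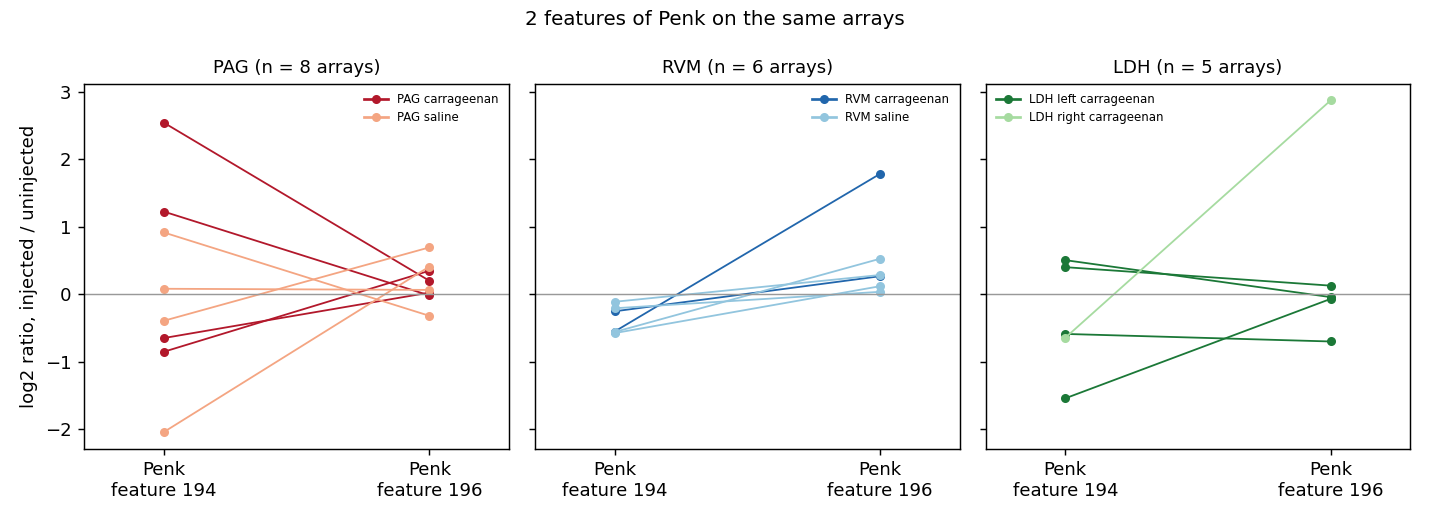
Log2 ratio (vertical axis) of Penk 194 and Penk 196 on the arrays that measured both, by region; each line is 1 array, coloured by group. In the RVM all 6 lines run from below 0 to above 0, whereas lines cross in the PAG.

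In the PAG, Penk 194 varied widely. It read 2.54, -0.85, -0.65, 1.22 and 0.010 under carrageenan, with a mean of 0.45 ± 1.42 (SD, n = 5), and -0.39, -2.04, 0.081 and 0.92 under saline, with a mean of -0.36 ± 1.25 (SD, n = 4). Both groups held arrays on either side of 0, and their ranges overlapped. The difference was 0.81 (95% interval -1.09 to 2.72; limma, adjusted p = 0.636). Its size rested on single arrays, from 0.25 without saline array 2 to 1.24 without saline array 4, and it was 0.18 with quantile normalization. Neither group passed against uninjected controls (limma, adjusted p = 0.607 and 0.851). Over both injections the value was 0.048 (95% interval -0.91 to 1.00; limma, adjusted p = 0.924), and the plain mean of the 9 arrays was 0.093.

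Penk 196 varied less there. It read 0.20, 0.35, 0.024 and -0.018 under carrageenan (mean 0.14 ± 0.17, SD, n = 4) and 0.69, 0.41, 0.064 and -0.32 under saline (mean 0.21 ± 0.44, SD, n = 4). The groups overlapped, and the difference was -0.07 (95% interval -0.63 to 0.48; limma, adjusted p = 0.911). Against uninjected controls, the limma adjusted p was 0.607 under carrageenan and 0.609 under saline, and over both injections the value was 0.18 (95% interval -0.10 to 0.45; limma, adjusted p = 0.34). Among the 5 opioid precursor features tested between carrageenan and saline in the PAG, 4 had a higher mean under carrageenan and 1 a lower. None passed, and neither did any of the 78 features in limma (0%) or the exact permutation test. With so few arrays the permutation test could pass a feature only together with several others. Of the 78, 10 had an unadjusted limma p under 0.05, none of them an opioid precursor. The median difference was 0.55 over the 5 and 0.135 over all 78.

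Penk 197 was measured on 8 arrays, too few for the main test. In the PAG it read -1.95, -0.72 and -1.005 on 3 carrageenan arrays and 0.98 and 1.39 on 2 saline arrays, so the groups lay on opposite sides of 0. How many other features did so on as few arrays was not counted. With a minimum of 2 measured arrays per group, the difference was -2.41 (95% interval -3.66 to -1.17; limma, unadjusted p = 0.005, adjusted p = 0.257 over 100 features). RVM saline gave 0.91 and -0.36, left LDH gave -2.47 on 1 array, and no other group measured it. On these 5 PAG arrays, Penk 194 had the same sign as Penk 197 on 4 and Penk 196 on 1. The carrageenan group taken alone had a mean of -1.23 (95% interval -2.26 to -0.19, n = 3; limma, adjusted p = 0.179 over 155 features).

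In the dorsal horn, Penk 194 was the only opioid precursor feature measured often enough on both sides. The left arrays read -1.54, 0.51, 0.40 and -0.59 and the right arrays 0.012, -1.03 and -0.65, which overlapped. The means were -0.31 ± 0.96 (SD, n = 4) on the left (limma, adjusted p = 0.554) and -0.56 ± 0.53 (SD, n = 3) on the right (limma, adjusted p = 0.621). The sides differed by 0.25 (95% interval -1.10 to 1.60; limma, adjusted p = 0.854), and together they averaged -0.43 (95% interval -1.10 to 0.24; limma, adjusted p = 0.334). Leaving out 1 array moved the difference between sides from -0.02 to 0.66.

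None of 29 features passed in the LDH in limma (0%) or the exact permutation test, in any of the 4 comparisons. Against uninjected controls that permutation could not pass on either side, since 5 left arrays give no p below 0.0625 and 4 right arrays none below 0.125. Between the sides it could pass a feature only together with several others. The numbers with an unadjusted limma p under 0.05 were 0 between the sides, 5 on the left, 1 on the right and 5 over both sides, none of them an opioid precursor. Penk 196 read -0.068, -0.043, 0.13, -0.63 and -0.70 on the left, with 4 of 5 below 0 and a mean of -0.26 ± 0.38 (SD, n = 5). Its 1 right reading was 2.87, the highest of any Penk value. In a fit of the left group alone, Penk 196 had a 95% interval from -0.69 to 0.16 (limma, adjusted p = 0.521).

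Pomc, the beta-endorphin precursor, had 3 features that also differed from one another. Pomc 191 stayed close to 0 in most groups but was far above it on 2 PAG carrageenan arrays. Pomc 192 was below 0 on 11 of the 12 arrays that measured it, and Pomc 198 spread to both sides of 0 in every region but the LDH. No Pomc feature passed in any main comparison.

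In PAG carrageenan, Pomc 191 read 0.29, -0.017, -0.17, 1.61 and 1.13, and in PAG saline 0.061, 0.14, 0.003, -0.077 and -0.018. Arrays 4 and 5 of the carrageenan group were far above all saline arrays, and the other 3 lay among or just outside them. The carrageenan mean was 0.57 ± 0.77 (SD, n = 5; 95% interval 0.04 to 1.10; limma, unadjusted p = 0.0374, adjusted p = 0.121) and the saline mean 0.021 ± 0.081 (SD, n = 5; limma, adjusted p = 0.964). The difference was 0.55 (95% interval -0.20 to 1.29; limma, adjusted p = 0.432). It ranged from 0.29, without carrageenan array 4, to 0.73 when 1 array was left out, and was 0.30 with array weights. Over both injections Pomc 191 averaged 0.29 (95% interval -0.08 to 0.67; limma, adjusted p = 0.24).

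Pomc 198 read 0.82, -0.11, 0.16 and 1.02 in PAG carrageenan (mean 0.48 ± 0.53, SD, n = 4) and -2.42, -0.11 and 0.68 in PAG saline (mean -0.62 ± 1.61, SD, n = 3). The saline mean held 1 array far below the others. The difference was 1.09, with a 95% interval from -0.73 to 2.91 (limma, adjusted p = 0.447). Against uninjected controls neither group passed (limma, adjusted p = 0.534 and 0.671). Over both injections the value was -0.07 (95% interval -0.98 to 0.84; limma, adjusted p = 0.904), whereas the plain mean of the 7 arrays was 0.0077, with 4 above 0 and 3 below, so the sign depends on the weighting. Pomc 192 gave -0.12 and -0.81 under carrageenan and -0.13 under saline, all below 0, on too few arrays for the test.

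**Figure D4:**
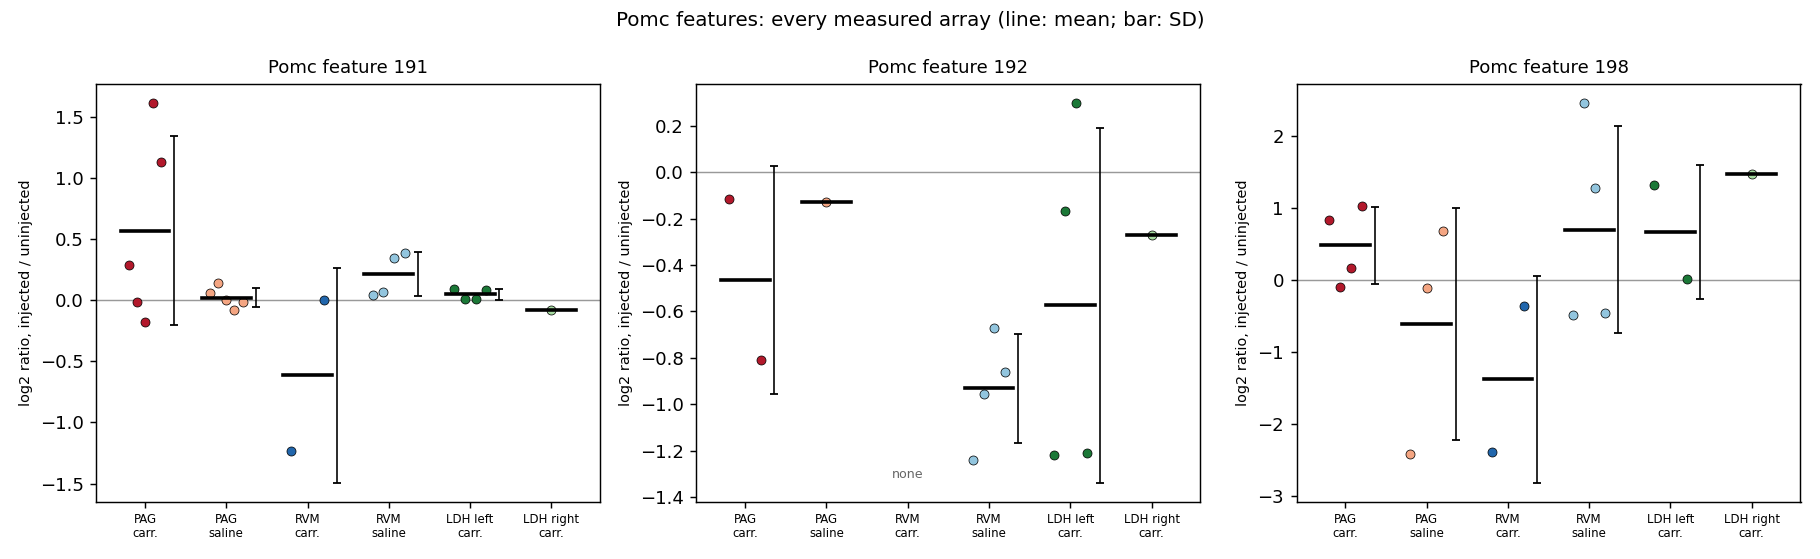
Log2 ratio of injected over uninjected RNA (vertical axis) on every array that measured the 3 Pomc features, by group; the line is the mean and the bar the SD. Pomc 191 is above 1 on 2 PAG carrageenan arrays, and Pomc 192 lies between -1.24 and -0.67 on the 4 RVM saline arrays.

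In the RVM, Pomc 192 was measured on all 4 saline arrays, at -1.24, -0.96, -0.67 and -0.86, and on none of the 5 carrageenan arrays. The mean was -0.93 ± 0.24 (SD, n = 4), and in a fit of that group alone the 95% interval ran from -1.37 to -0.50 (limma, unadjusted p = 0.00355, adjusted p = 0.074 over 127 features). Of 228 features, 6 (2.63%) were measured on all saline and no carrageenan arrays of the RVM. RVM saline arrays measured 145.5 features on average and RVM carrageenan arrays 69.8, and the part of this gap was not tested.

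The other Pomc features did not repeat the low reading of Pomc 192. Pomc 191 read 0.041, 0.069, 0.34 and 0.39 on the same 4 RVM saline arrays, all above 0, so that it exceeded Pomc 192 on each, by 1.14 ± 0.14 (SD). Pomc 198 read -0.49, 2.46, 1.27 and -0.47 there, on both sides of 0. On the RVM carrageenan arrays, Pomc 191 gave -1.24 and 0.004, and Pomc 198 gave -2.40 and -0.37.

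In the left LDH, Pomc 191 read 0.089, 0.013, 0.006 and 0.082, all above 0 and within 0.1 of it (mean 0.048 ± 0.044, SD, n = 4). Pomc 192 read -1.22, -0.17, 0.30 and -1.21 on the left (mean -0.57 ± 0.76, SD, n = 4), with 3 of 4 below 0. Pomc 198 gave 1.32 and 0.004. On the right, each Pomc feature was measured on 1 array, at -0.081 for Pomc 191, -0.27 for Pomc 192 and 1.47 for Pomc 198. In a fit of the left group alone, the interval of Pomc 192 ran from -1.53 to 0.38 and that of Pomc 191 from -0.19 to 0.29 (limma, adjusted p = 0.521 and 0.73).

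Between the regions, no opioid precursor feature differed beyond its spread. Among carrageenan animals, the PAG mean of Penk 194 was 1.35 above the RVM mean (95% interval -0.63 to 3.34) and that of Penk 196 was -0.56 from it (95% interval -1.61 to 0.49), each with a limma adjusted p of 0.629. Among saline animals, PAG minus RVM was 0.0045 for Penk 194, -0.0295 for Penk 196, -0.19 for Pomc 191 and -1.31 for Pomc 198, with limma adjusted p between 0.492 and 0.994. The effect of carrageenan against saline was larger in the PAG than in the RVM by 1.35 for Penk 194 (95% interval -0.93 to 3.63; limma, adjusted p = 0.537) and by -0.53 for Penk 196 (95% interval -1.60 to 0.53; limma, adjusted p = 0.583). None of the features tested passed in limma: 0 of 59 for carrageenan (0%), 0 of 72 for saline (0%) and 0 of 48 for the interaction (0%). The exact permutation test, run for the first and the second, also passed 0, but with so few arrays it could pass a feature only together with several others. Unadjusted limma p-values under 0.05 numbered 3, 7 and 3, none of them for an opioid precursor. Ordered by mean over the groups with at least 2 measured arrays, neighbouring groups overlapped in range for Penk 194, Penk 196 and all 3 Pomc features. The groups of Penk 197 did not overlap, on 2 arrays in PAG saline, 2 in RVM saline and 3 in PAG carrageenan.

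**Figure D5:**
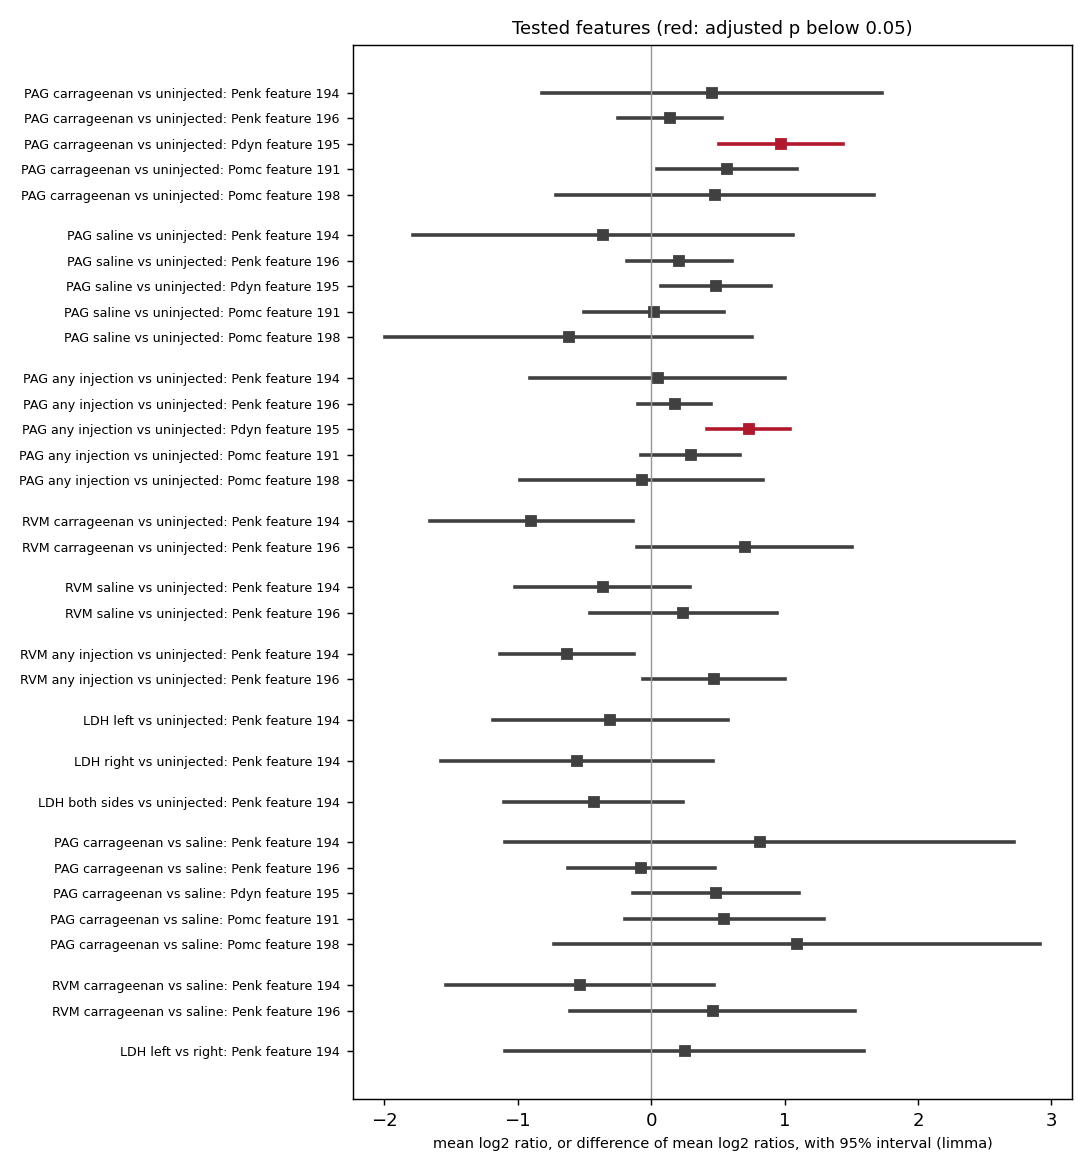
Mean log2 ratio of a group, or difference between groups (horizontal axis), with its 95% interval from limma, for every opioid precursor feature tested in 12 of the 15 comparisons. Only Pdyn 195 in PAG carrageenan (0.97) and in the PAG over both injections (0.73) passed at an adjusted p below 0.05.

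Among the different precursors, Pdyn 195 and Pomc 198 varied together most closely over all arrays. Over the 12 arrays that measured both, rho was 0.85 (permutation p = 0.00087, adjusted p = 0.0174 over 20 pairs) and r was 0.76 (permutation p = 0.00469, adjusted p = 0.0938). Without the 2 arrays farthest from the median of Pdyn, r was 0.68, and within the 7 PAG arrays it was 0.62. Within the PAG other pairs had a higher r: Penk 194 and Pomc 198 (0.84, n = 7), Pdyn and Pomc 191 (0.80, n = 9) and Penk 194 and Pdyn (0.71, n = 8). The 12 arrays span 3 regions and share RNA, dyes and hybridisation for each point. No other of the 20 pairs with at least 6 shared arrays passed after adjustment by either measure. Over all arrays, Pdyn had r = 0.21 (rho = 0.38, n = 17) with Pomc 191 and r = 0.027 (rho = 0.27, n = 9) with Pomc 192. Without the 2 arrays farthest from the median of Pdyn, these r were 0.65 and 0.48. The closeness to Pomc 198 was thus not shared by every Pomc feature. Pomc 191 and Pomc 198, of the same gene, had r = 0.47 over 14 arrays (permutation p = 0.0919, adjusted 0.596; rho = 0.30, permutation p = 0.295, adjusted 0.766), which fell to 0.028 without the 2 farthest arrays. Pomc 191 and Pomc 192 had the same sign on only 1 of 10 arrays.

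The features of other genes whose pattern was most like that of a precursor were taken by r over at least 12 shared arrays. For Pdyn they were the neurotensin receptor Ntsr1 (r = 0.77, n = 13), the GABA-A subunit Gabrq (0.76, n = 17) and the adrenergic receptor Adra2a (0.58, n = 15). Without the 2 farthest arrays these fell to -0.25, -0.077 and 0.078, so each r rested on those arrays. By ranks, rho was 0.20, 0.21 and 0.62, the last for Adra2a (permutation p = 0.0159, not adjusted). For Penk 194 they were the serotonin receptor Htr2a (0.54, n = 20), the kainate receptor subunit Grik3 (0.52, n = 22) and the mu opioid receptor Oprm1 (0.51, n = 18). Grik3 kept 0.66 without the 2 farthest arrays, and Htr2a and Oprm1 had 0.35 and 0.32.

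For Penk 196 they were 3 glutamate receptor genes, Grm6 (0.68, n = 14), Grin1 (0.50, n = 13) and Grin2b (0.45, n = 21), none of which was among the closest to Penk 194. Grm6 kept 0.61 without the 2 farthest arrays. For Pomc 191 they were Vipr2 (r = 0.795, n = 19), a receptor of vasoactive intestinal peptide, the cytokine Il10 (0.71, n = 13) and the tachykinin receptor Tacr2 (0.63, n = 19), and each fell below 0.1 without the 2 farthest arrays. For Pomc 198 they were the serotonin receptor Htr4 (0.60, n = 16), the kainate subunit Grik1 (0.595, n = 12) and the adrenergic receptor Adrb3 (0.59, n = 15), which had 0.59, 0.48 and 0.59 without them. For Pomc 192 they were Grin2b (0.49, n = 12), the neurotrophin Ntf4 (0.42, n = 12) and Htr2a (0.37, n = 12). Of the 401 relations computed, none of these 18 had a permutation p for r below 0.571 after adjustment.

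The receptors of the opioid peptides were read on too few arrays for most tests. Of 16 listed genes of opioid receptors and peptide processing, 4 were on the array, as 5 features, and only Oprm1 154 was tested, in the LDH. On the left, Oprm1 ran from -3.32 to -0.14 and was below 0 on 5 of 5 arrays, with a mean of -1.19 ± 1.26 (SD; limma, unadjusted p = 0.0435, adjusted p = 0.275). The right mean was -0.83 ± 1.19 (SD, n = 3), and the sides differed by -0.36 (95% interval -2.24 to 1.51, limma). Over both sides the mean was -1.01 (limma, adjusted p = 0.219). In PAG carrageenan, the delta receptor Oprd1 was below 0 on 5 of 5 arrays, with a mean of -2.32 ± 0.64 (SD), and no PAG saline array measured it. PAG carrageenan arrays measured 148.8 features on average and PAG saline arrays 80.8, and the part of this gap was not tested. Oprd1 was also below 0 on 3 of 3 RVM saline arrays (mean -2.11) and 2 of 2 left LDH arrays (mean -2.28). Its 1 reading in RVM carrageenan and 1 in right LDH were above 0. Oprd1 entered no main test, and how many other features lay below 0 on every measured array of a group was not counted. Dye and injection cannot be told apart in these readings either. Oprk1, the kappa receptor at which dynorphin acts, gave 3 readings in the PAG, between -0.84 and 3.54. Oprl1, the nociceptin receptor, was measured on 7 arrays by feature 187 and on 9 by feature 188.

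Precursors of other neuropeptides were on the array for 8 of 31 listed genes, as 14 features. Between carrageenan and saline in the PAG, 5 were tested: 4 had a higher and 1 a lower mean under carrageenan and none passed, the same counts as for the opioid precursors, with a median of 0.27. In the RVM, 4 were tested (Tac1 55, Tac1 79, Nts 184 and Calca 193), and all 4 had a lower mean under carrageenan (median -1.04), none of them passing. Of all 56 features tested there, 37.5% had a higher mean under carrageenan. The Calca mean of -2.05 under carrageenan held a reading of -9.41, and its median was 0.0385. Of the opioid precursor features, Penk 196 had a higher and Penk 194 a lower mean. Against uninjected controls, 1 of the 5 passed in the PAG beside Pdyn: neurotensin, Nts 184, at 0.57 ± 0.30 (SD, n = 5; limma, adjusted p = 0.0227) under carrageenan and 0.43 over both injections (95% interval 0.22 to 0.64; limma, adjusted p = 0.0209). The other Nts features did not repeat this: Nts 183 averaged -0.17 on 3 PAG carrageenan arrays and was below 0 on 3 of 4 PAG arrays, and Nts 182 read -0.16 on 1. In RVM saline Nts 184 had a mean of 0.68 ± 0.46 (SD, n = 4; limma, adjusted p = 0.133), and over both RVM groups 0.52 (95% interval 0.10 to 0.93; limma, adjusted p = 0.157).

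Tac1, the precursor of substance P, had an unadjusted limma p under 0.05 in several comparisons, through feature 55, and passed in none. Its mean was 0.70 ± 0.46 (SD, n = 5) in PAG carrageenan, and all 5 arrays were above 0. Against uninjected controls the 95% interval there was 0.23 to 1.17 (limma, adjusted p = 0.0562). The mean was -0.0505 ± 0.50 (SD, n = 4) in PAG saline, and the groups differed by 0.75 (95% interval 0.05 to 1.45; limma, adjusted p = 0.381). In the RVM it was -0.066 ± 0.17 (SD, n = 4) under carrageenan and 1.22 ± 1.18 (SD, n = 4) under saline (adjusted p in limma against uninjected controls 0.094). Among carrageenan animals the PAG mean exceeded the RVM mean by 0.76 (limma, adjusted p = 0.403), and the interaction of treatment and region was 2.03 (95% interval 0.68 to 3.38; limma, adjusted p = 0.0959). For Tac1 79, the differences between PAG and RVM groups had the same signs at smaller size. Carrageenan exceeded saline by 0.34 in the PAG (limma, adjusted p = 0.795). The group means of Tac1 79 did not all share the signs of feature 55, with 0.075 in RVM carrageenan. Its interaction was 1.14 (limma, adjusted p = 0.537). Tac1 28 averaged -0.18 in PAG carrageenan, with 3 of 4 arrays below 0.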

How the data were processed

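The authors deposited 1 log2 ratio per feature and array for 28 two-colour arrays (1 Alexa dye for the injected animal, another for the control). TRIzol was used for extraction, and 5 µg of RNA was labelled with a 3DNA kit (65 °C, 3 h), per the labels' protocols. Scanning, background correction, normalization and centring are not given in the sources used here, and base 2 and the direction are inferred. Of 378 pairs of arrays, 1 had r below -0.3 over all features (-0.41, PAG saline 3 with RVM carrageenan 2, which measured no opioid precursor), and 0 held identical values. No array was turned in sign, because the dyes are stated for every array. The dyes do not tell which of them is the numerator of the ratio.

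Gene names are those of the platform annotation, updated through a RefSeq table. Of 228 features, 202 had 1 symbol, 26 had none, and 198 matched the table. Values were used as deposited. Array medians lay between -0.061 and 0.083. The members, lists and tests were chosen with earlier results of these data known. Each of 15 comparisons was fitted to its own groups with limma 3.58.1 in R 4.3.3 (lmFit, eBayes, two-sided), with no covariates, at an adjusted p of 0.05. A feature entered with at least 3 measured arrays in each group, and the fit drops arrays that did not measure it. A group against its uninjected controls is its mean against 0, and the controls' own spread is seen only within the ratios. Values over both groups of a region weight the 2 group means equally. "Group alone" names a fit of 1 group on every feature it measured on at least 3 arrays.

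The text names each opioid precursor feature in every comparison it entered. For each one measured on at least 12 arrays it also names the 3 features of other genes with the highest r. Features of the lists of other peptides and receptors are named where the unadjusted p was under 0.05, and opioid receptors throughout. Correlations used 100000 resamples, or exact pairings under 10 arrays. Alternatives were median centring, quantile normalization, zeros kept, 3 other filters, all 6 groups in 1 fit, the group alone, robust variance, array weights, the exact permutation test, a block on array number and leaving out each array. Leaving out the 4 arrays with fewer than 40 features was added after the data were seen. The scripts were tested on simulated data.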

Additional observations from a re-analysis of the deposited data

Results flagged for a closer look

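Penk 197 lay on opposite sides of 0 in the groups of the PAG: all 3 measured carrageenan arrays were below 0 and both measured saline arrays above it, a difference of -2.41. The limma test with a minimum of 2 measured arrays per group gave an adjusted p of 0.257. How many other features separated in this way was not counted. PAG carrageenan arrays measured 148.8 features on average and PAG saline arrays 80.8.

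Pomc 198 was below 0 on both measured RVM carrageenan arrays and above 0 on both measured left LDH arrays, a difference of -2.04. This difference was not tested, and how many other features separated in this way was not counted.

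In 19 groups of 4 or more values of an opioid precursor feature, no single array stood apart by Dixon's criterion. With so few values the criterion can flag only a very large gap. Groups with fewer values, such as Pdyn in RVM saline with its reading of 5.99, were not tested.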

How the results depend on the processing

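The number of opioid precursor features that passed changed as follows; causes were not tested unless given. In PAG carrageenan against uninjected it fell from 1 to 0 with zeros kept, quantile normalization, only features measured on every array (which leaves out Pdyn), all 6 groups in 1 fit, the group alone, the replicate block and the exact permutation test, and ranged from 0 to 1 when 1 array was left out. For the PAG over both injections it fell from 1 to 0 with zeros kept, only features measured on every array, all 6 groups in 1 fit, the replicate block and the permutation test. Pdyn then had an adjusted p of 0.0526 with the block (limma), and 0.0817 and 0.349 with zeros kept and with all 6 groups.

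PAG saline rose from 0 to 1 with quantile normalization (Pdyn, 0.96; limma, adjusted p = 0.0434). Right LDH rose to 1 with 1 measured array per group (Penk 196, on 1 array). With zeros kept, Pomc 192 made 1 call in each of RVM carrageenan against saline, RVM saline, RVM over both injections, saline PAG against RVM, and the interaction; these rest on the zeros of arrays that did not measure it.

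Directions turned as follows. With quantile normalization: Pdyn in PAG carrageenan against saline (-0.30), Penk 194 in PAG saline (0.20) and Penk 196 in saline PAG against RVM (0.090). With array weights: Penk 196 in PAG carrageenan against saline (0.011) and in saline PAG against RVM (0.015), Penk 194 in left LDH (0.055), and Pomc 198 in the PAG over both injections (0.059). Pomc 198 there gave 0.0054 with zeros kept. With the replicate block: Penk 196 in PAG carrageenan (-0.21), PAG saline (-0.13) and both (-0.17), Pomc 198 in PAG saline (0.36) and both (0.85), and Penk 194 in both (-0.0080). The r of Penk 196 with Penk 197 was 0.016 with zeros kept, 0.012 with centring and 0.30 on deviations from group means.

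Leaving out 1 array at a time turned some directions. The ranges were -0.25 to 0.087 for Penk 196 and carrageenan against saline in the PAG, -0.020 to 0.66 for Penk 194 between LDH sides, -0.067 to 0.78, -0.78 to 0.20, -0.21 to 0.33 and -0.58 to 0.11 for Penk 194 in PAG carrageenan, PAG saline, PAG over both and left LDH, -0.0078 to 0.046 for Pomc 191 in PAG saline, and -0.16 to 0.027 for Pomc 198 in the PAG over both. In saline PAG against RVM they were -0.42 to 0.57 for Penk 194 and -0.19 to 0.15 for Penk 196. For r they were -0.52 to 0.15 (Penk 194 and 197), -0.44 to 0.45 (196 and 197), -0.25 to 0.033 (Pomc 191 and 192) and -0.37 to 0.054 (192 and 198). None of these had passed. The other alternatives left 428 of 453 values with their direction and side of the threshold, and leaving out arrays 318 of 339. Most of these values belong to results that had not passed. Of the Pdyn calls in the PAG, the other alternatives lost that for carrageenan in 6 of 12 and that over both injections in 4 of 11.

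Deviations of same-numbered arrays correlated at -0.33 to 0.38 in the PAG, -0.059 to 0.23 in the RVM and -0.27 to -0.040 in the LDH. A correlation above 0.1 was found for 2 of 5 pairs in the PAG, 2 of 4 in the RVM and 0 of 3 in the LDH. So few pairs cannot show whether array numbers pair the arrays. Over all features the block moved the calls in PAG carrageenan from 11 to 3 and in the PAG over both injections from 7 to 4. The number of arrays that measured a feature limits every comparison.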
